A study of Mus musculus with 6 samples.

Results

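The genes described here are 6 genes of cholesterol synthesis and its feedback control, Hmgcs1, Idi1, Fdft1, Sqle, Lss and Insig1, together with the transcription factor gene Srebf2 and the cholesterol exporter gene Abca1. They were chosen by name as the rows of the count table that carry these 8 symbols, 8 of 22183 genes in all, and each symbol had 1 row. All 8 passed the filter on low counts and were among the 14005 genes tested. The libraries were made from peritoneal tissue of wild-type mice that had received saline or peritoneal dialysis (PD) fluid by injection into the peritoneal cavity for 6 weeks, with 3 mice in each group. The study's methods give male C57BL/6J young adult mice. Per the labels, endothelial cells (ECs) were taken by magnetic sorting for CD31, a surface protein of ECs that some leukocytes also carry. The study's methods describe another sort, a flow cytometry gate on mesentery cells that takes CD31+ cells and leaves out those with CD45, a protein of leukocytes. The question the comparison addresses is how the transcripts of peritoneal ECs differ between PD mice and saline mice.

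Cholesterol is built from acetyl-CoA in the endoplasmic reticulum, first through mevalonate to isoprene units, then by their joining into squalene, and last by closing and trimming the sterol rings. When membrane cholesterol is low, the transcription factor SREBP2, the product of Srebf2, is carried to the Golgi by SCAP, cut free by proteases and switches on the genes of the enzymes, while INSIG proteins hold it back when cholesterol is plentiful. The opposite arm is led by the liver X receptors (LXRs), which sense oxysterols and raise exporters such as ABCA1 that hand cholesterol to lipid-poor apolipoprotein.

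Total counts per library ran from 21973426 to 26374292. The 8 genes together took between 0.0363% and 0.0494% of the counts of a library. Of 12 endothelial markers, 11 were higher in PD mice, and their summed level ran from 1172 to 1195 CPM (reads of the gene per 1000000 scaled library counts) in saline mice and from 1907 to 2036 CPM in PD mice. Markers of other cells were abundant too. Summed levels of 6 B cell markers ran from 5125 to 5401 CPM in saline mice, above the endothelial sum, and from 2426 to 2450 CPM in PD mice, with 6 of 6 lower. For 7 macrophage markers the sum ran from 2325 to 2471 CPM in saline mice and from 9507 to 10236 CPM in PD mice, with 7 of 7 higher. Markers of fibroblasts (7 of 7), mesothelium (7 of 7) and smooth muscle cells or pericytes (6 of 6) were also higher, and 8 of 8 acinar markers of the pancreas went from 1.80 to 5.49 CPM in sum in saline mice to between 9102 and 9910 CPM in PD mice. Ptprc, which encodes the leukocyte protein CD45, had a mean of 2373 ± 127 CPM with saline and of 1473 ± 63.6 CPM with PD fluid (SD, n = 3), against 469 ± 19.4 and 514 ± 7.85 CPM for Pecam1, which encodes CD31. Levels of Ptprc and of the B cell and macrophage markers thus go against a gate that leaves out CD45+ cells. In such bulk libraries, fewer cells of a type and less RNA per cell cannot be told apart.

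Under PD fluid, Abca1 rose 1.65-fold, and the 5 synthesis enzymes stayed within a log2 fold change of -0.27 to 0.14. Srebf2 rose 1.32-fold with overlap between the groups, while Insig1 and the squalene synthase gene Fdft1 each fell to 0.83 of the saline level. At an adjusted p under 0.05 (edgeR's quasi-likelihood test, p adjusted over all tested genes by Benjamini-Hochberg), 2 of the 8 genes were higher and 2 lower, while 4 did not pass. Srebf2, Insig1 and Fdft1 no longer passed when certain mice were left out, as given below. Over all tested genes 58.9% passed, 31.1% as higher and 27.8% as lower, so the share among the 8 is near the background. The median log2 fold change was -0.08 over the 8 genes and 0.02 over all tested genes. When the libraries were instead scaled to the 12 endothelial markers, the median of all genes moved to -0.98 and all 8 genes were called lower, with Abca1 at -0.28 and Srebf2 at -0.59. Relative to that median Abca1 was at 0.70, Srebf2 at 0.39, Fdft1 at -0.29 and Insig1 at -0.28.

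**Figure D1:**
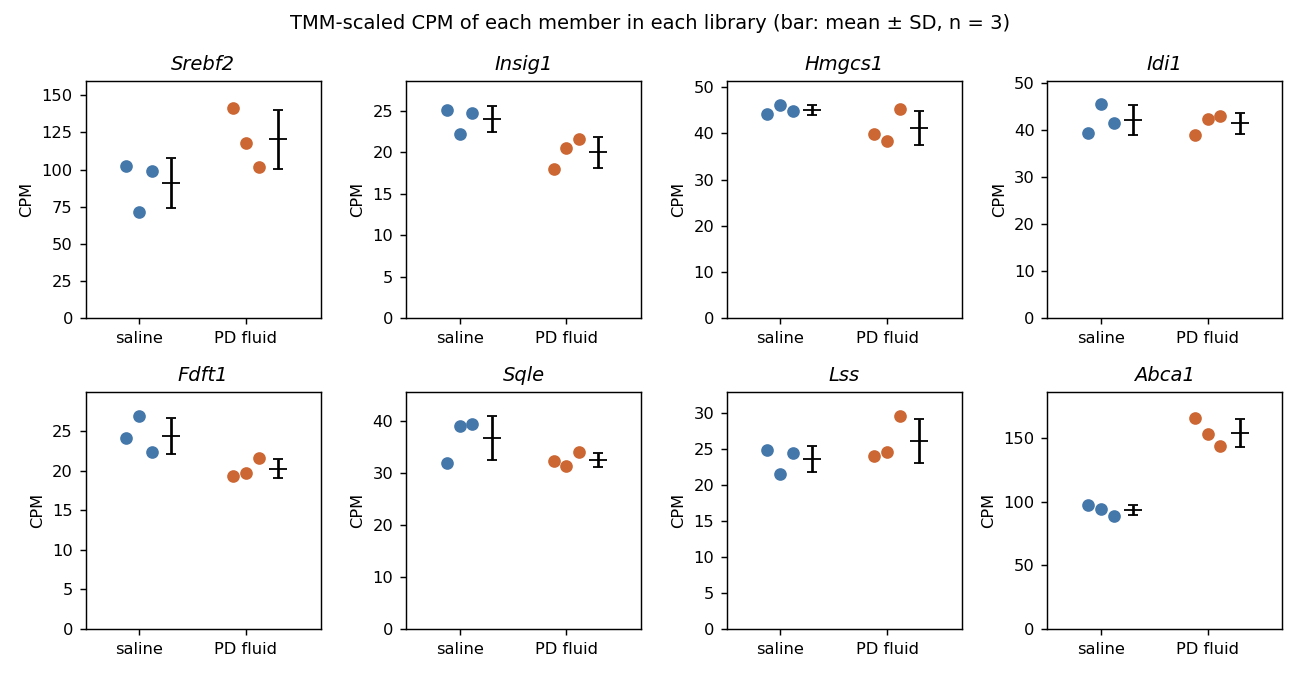
Level of each of the 8 genes in CPM (y axis), 1 point per library, with saline and PD mice side by side and a bar at the mean with its SD (n = 3). Abca1 stands apart upward in PD mice (144 to 166 CPM against 89.0 to 97.1 CPM), Insig1 and Fdft1 stand slightly lower without overlap, and the other 5 genes overlap between the groups.

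Upstream sequences from RefSeq (GRCm38.p6) were used for 6 of the 8 genes, and those of Sqle and Fdft1 were not analysed here. The windows, 250 bases before to 50 bases after the RefSeq start, were searched on both strands for the sterol regulatory element TCACNCCAC, the palindromic E-box TCACGTGA, CCAAT, the GC box GGGCGG and DR4, a direct repeat of AGGTCA with 4 bases between its copies. These elements are known binding sites, in order, of SREBPs, of SREBPs and other helix-loop-helix factors, of NF-Y, of SP1 and of LXRs. The Hmgcs1 window held the sterol regulatory element, as did 1.24% of all 32851 windows of that length, and the other 5 windows did not. A CCAAT match was found in 5 of the 6 windows, with Abca1 as the exception, against 37.4% of all windows. All 6 held a GC box, against 35.7% of all windows, while 0 of 6 held the E-box or DR4 match, which were found in 0.974% and 0.0152% of all windows. The Idi1 matches start at -69 (GC box), -45 and -14 (CCAAT) relative to the RefSeq start. They lie after a GENCODE start of that gene, which is 105 bases before the RefSeq start. Likewise, the Srebf2 GC boxes at -79, -52 and -34 lie after a GENCODE start of Srebf2, which is 88 bases before its RefSeq start. In the member windows 0 pairs of matches overlapped each other. Shown are the bases before the start of Hmgcs1, the synthesis gene that holds the sterol element, and of Abca1, chosen after its values were seen as the gene with the largest change. They run 5′ to 3′ along the strand of the gene, with the matches in capitals (ATTGG and CCGCCC are CCAAT and the GC box read on the other strand). The Hmgcs1 bases are chr13:119690101-119690350 on the plus strand and the Abca1 bases are chr4:53159896-53160145 on the minus strand, both in GRCm38.
Hmgcs1: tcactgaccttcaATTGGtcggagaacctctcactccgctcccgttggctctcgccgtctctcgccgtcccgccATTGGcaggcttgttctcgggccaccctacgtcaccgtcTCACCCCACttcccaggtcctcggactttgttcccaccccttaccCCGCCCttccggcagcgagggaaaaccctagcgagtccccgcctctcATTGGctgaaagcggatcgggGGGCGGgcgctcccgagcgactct
Abca1: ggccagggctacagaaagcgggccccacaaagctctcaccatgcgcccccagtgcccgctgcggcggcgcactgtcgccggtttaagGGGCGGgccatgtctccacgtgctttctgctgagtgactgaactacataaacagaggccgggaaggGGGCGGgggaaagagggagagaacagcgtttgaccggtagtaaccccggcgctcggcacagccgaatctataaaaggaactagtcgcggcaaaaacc
In Hmgcs1 the sterol element TCACCCCAC starts 137 bases before the RefSeq start, between CCAAT matches on either side. In Abca1 the capitals mark the GC boxes alone. A match is a description of the letters in the window, and its absence says only that those letters are not there. Exact copies of DR4 were found in only 5 of the 32851 windows, so 0 of 6 tells little. Forms of DR4 with other letters were not searched, in Abca1 or elsewhere.

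Srebf2 (ENSMUSG00000022463, chromosome 15, 82147181 to 82205379, plus strand in the GENCODE M21 annotation of GRCm38, as for all positions given here) encodes the factor that drives the synthesis genes. Its level was 102, 71.7 and 99.1 CPM in saline mice 1 to 3 and 142, 118 and 102 CPM in PD mice 1 to 3. Saline mouse 2 was the lowest library and PD mouse 1 the highest, and PD mouse 3 lay just below saline mouse 1, so the groups overlapped. The mean went from 91.1 ± 16.9 CPM to 120 ± 20.0 CPM (SD, n = 3), a log2 fold change of 0.40 (SE 0.14, 95% interval 0.09 to 0.71, adjusted p = 0.0296 by edgeR's quasi-likelihood test). The call was lost without saline mouse 2 (log2 0.26, adjusted p = 0.0711), without PD mouse 1 (0.27, adjusted p = 0.132) and without PD mouse 2 (0.43, adjusted p = 0.0611).

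The Srebf2 transcript is rich in G and C, at 57.9% against a median of 49.6% over the tested genes. In the tenth of tested genes with the highest GC content, the median deviation of a library from the mean of all libraries was, on the log2 scale, -0.12, -0.34 and -0.05 in saline mice 1 to 3 and 0.29, 0.17 and 0.08 in PD mice 1 to 3. Saline mouse 2 and PD mouse 1 thus marked the ends for these genes as they did for Srebf2. After a correction of each library for GC content, added after seeing the data, the log2 fold change of Srebf2 was 0.0575 (adjusted p = 0.588 by edgeR's quasi-likelihood test). The deviations were negative in all saline mice and positive in all PD mice. The GC trend and treatment thus cannot be told apart here, and the correction may also take out a difference due to treatment.

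Insig1 (ENSMUSG00000045294, chromosome 5, 28071363 to 28078662, plus strand) encodes the protein that holds SCAP in the endoplasmic reticulum and is itself a target of SREBPs. Its level was 25.2, 22.2 and 24.7 CPM in saline mice and 18.0, 20.5 and 21.6 CPM in PD mice. Every PD mouse lay below every saline mouse; PD mouse 3 came close to saline mouse 2. Such separation downward was seen in 2 of the 8 genes, Insig1 and Fdft1, against 31.6% of tested genes, and upward in 1, Abca1, against 34.0% (65.6% in either direction). The mean went from 24.0 ± 1.58 to 20.0 ± 1.87 CPM, a log2 fold change of -0.27 (SE 0.11, 95% interval -0.50 to -0.03, adjusted p = 0.0499 by edgeR's quasi-likelihood test), which is at the threshold. The adjusted p was 0.162 without saline mouse 1, 0.108 without saline mouse 3, 0.169 without PD mouse 1 and 0.108 without PD mouse 2 by the same edgeR test, with log2 fold changes of -0.23, -0.25, -0.19 and -0.28. DESeq2 gave an adjusted p of 0.0522. With the GC correction Insig1 was at -0.28 (edgeR adjusted p = 0.0319).

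The mevalonate branch was represented by Hmgcs1 and Idi1. Hmgcs1 (ENSMUSG00000093930, chromosome 13, 119690379 to 119708260, plus strand) encodes the cytosolic synthase that makes HMG-CoA. It was at 44.1, 46.3 and 44.9 CPM in saline mice and at 40.0, 38.4 and 45.4 CPM in PD mice. PD mice 1 and 2 lay below all saline mice and PD mouse 3 lay among them. The log2 fold change was -0.13 (SE 0.09, 95% interval -0.32 to 0.06), with an adjusted p of 0.214 by edgeR's quasi-likelihood test. Idi1 (ENSMUSG00000058258, chromosome 13, 8885501 to 8892451, plus strand) encodes the isomerase that interconverts the isoprene units. Its level was 39.4, 45.5 and 41.5 CPM in saline mice and 39.0, 42.3 and 43.0 CPM in PD mice, with PD mouse 1 just below the saline range and the others inside it. Its log2 fold change was -0.02 (SE 0.09, adjusted p = 0.820 by edgeR's quasi-likelihood test), with a 95% interval of -0.21 to 0.16.

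Fdft1 (ENSMUSG00000021273, chromosome 14, 63145150 to 63179578, minus strand) encodes squalene synthase, the first enzyme committed to sterols. Its level was 24.1, 26.8 and 22.3 CPM in saline mice and 19.4, 19.8 and 21.6 CPM in PD mice. All PD mice were below all saline mice, with PD mouse 3 close to saline mouse 3. The mean went from 24.4 ± 2.28 to 20.2 ± 1.21 CPM, a log2 fold change of -0.27 (SE 0.10, 95% interval -0.50 to -0.04, adjusted p = 0.0444 by edgeR's quasi-likelihood test). The adjusted p was 0.0934 without saline mouse 1, 0.136 without saline mouse 2, 0.121 without PD mouse 1 and 0.135 without PD mouse 2 by the same edgeR test, with log2 fold changes of -0.27, -0.20, -0.24 and -0.24, and DESeq2 gave 0.0512. With the GC correction Fdft1 was at -0.38 (edgeR adjusted p = 0.00957). Its exons overlap those of Ctsb, a lysosomal protease gene on the other strand, which went from 1093 ± 25.7 to 3308 ± 105 CPM. Since the sources used here do not say that counting used strand, reads of the 2 genes may not be told apart there.

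The remaining enzymes act on squalene. Sqle (ENSMUSG00000022351, chromosome 15, 59315077 to 59331192, plus strand) encodes squalene epoxidase, a rate-limiting step of the sterol branch. It was at 31.9, 39.0 and 39.5 CPM in saline mice and at 32.3, 31.4 and 34.1 CPM in PD mice. Saline mouse 1 lay among the PD mice and the other saline mice lay above them. The log2 fold change was -0.17 (SE 0.10, 95% interval -0.39 to 0.05, adjusted p = 0.154 by edgeR's quasi-likelihood test). Without saline mouse 1 it was -0.26 and passed, with an adjusted p of 0.0479 by the same edgeR test. Lss (ENSMUSG00000033105, chromosome 10, 76531588 to 76557138, plus strand) encodes lanosterol synthase, which closes the sterol rings. Its level was 24.8, 21.5 and 24.4 CPM in saline mice and 23.9, 24.6 and 29.5 CPM in PD mice. Only PD mouse 3 lay above all saline mice, and the log2 fold change of 0.14 (SE 0.11, 95% interval -0.10 to 0.38, adjusted p = 0.298 by edgeR's quasi-likelihood test) was the 1 value above 0 among the 5 enzymes. The exons of Hmgcs1, Idi1 and Lss overlap antisense non-coding genes (Gm48342, Gm48574 and 4930483K19Rik), which were not analysed here.

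Abca1 (ENSMUSG00000015243, chromosome 4, 53030787 to 53159895, minus strand) encodes the transporter that moves cholesterol and phospholipid out of the cell onto apolipoprotein. Its level was 97.1, 94.4 and 89.0 CPM in saline mice and 166, 153 and 144 CPM in PD mice. The groups were far apart, with the lowest PD mouse above the highest saline mouse by more than the range within either group. The mean went from 93.5 ± 4.12 to 154 ± 10.8 CPM (SD, n = 3), a log2 fold change of 0.72 (SE 0.07, 95% interval 0.56 to 0.88, adjusted p = 1.06e-05 by edgeR's quasi-likelihood test). Leaving out any 1 mouse kept it between 0.67 and 0.77. Abca1 is also highly expressed in macrophages, whose 7 markers rose as given above although the gate against CD45 in the study's methods would remove these cells, and their part in its rise was not tested.

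**Figure D2:**
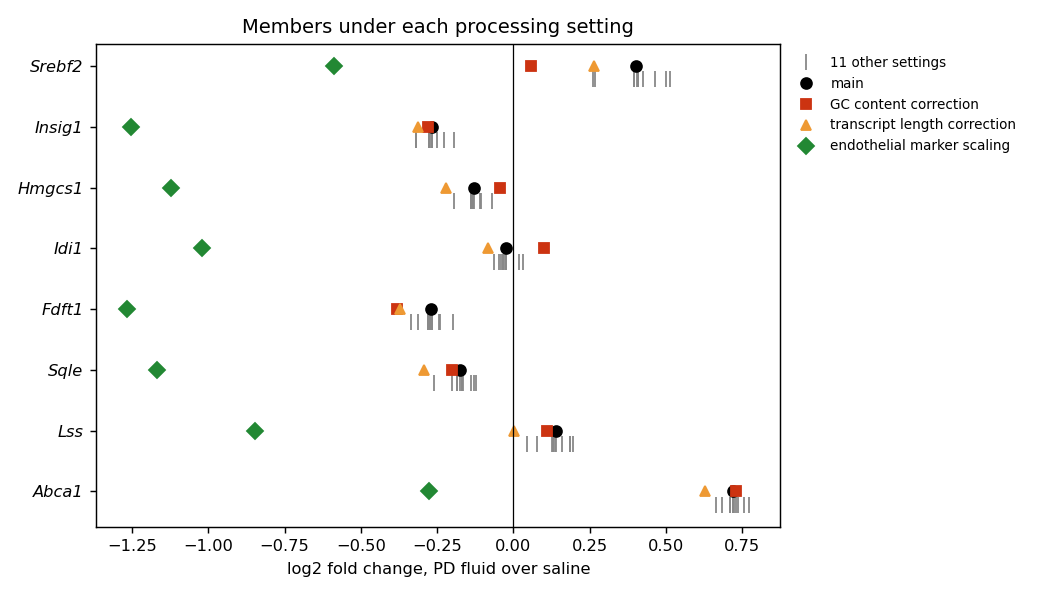
Log2 fold change of each of the 8 genes (x axis, PD fluid minus saline) in the main test (black circle), with GC or length correction (square, triangle), with scaling to endothelial markers (diamond) and under 11 other settings (grey ticks, set slightly lower). Abca1 is at 0.72 in the main test, Srebf2 moves to 0.0575 with the GC correction, and scaling to endothelial markers moves all 8 genes downward.

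For levels between genes, the authors' FPKM values, which are scaled to transcript length, were used. In saline mice the order of mean FPKM was Srebf2 (23.0 ± 2.54), Idi1 (16.3 ± 1.01), Hmgcs1 (13.9 ± 0.18), Sqle (13.3 ± 1.52), Abca1 (9.08 ± 0.37), Insig1 (8.88 ± 0.65), Fdft1 (8.74 ± 0.84) and Lss (5.03 ± 0.43). Hmgcs1 and Sqle overlapped, as did Abca1, Insig1 and Fdft1, while the other neighbours in the order were apart in all 3 mice. In PD mice Abca1 reached 15.1 ± 1.47 FPKM and moved from place 5 to place 3, where its range of 13.7 to 16.6 overlapped those of Idi1 (15.8 to 16.4) and Hmgcs1 (12.5 to 13.9). The order of the other 7 genes was the same in both groups. Srebf2 led in both groups, with 27.8 ± 6.34 FPKM in PD mice. Its FPKM was 24.25, 20.1 and 24.7 in saline mice 1 to 3 and 35.13, 24.69 and 23.7 in PD mice 1 to 3. In this measure PD mouse 1 alone lay above the saline range.

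**Figure D3:**
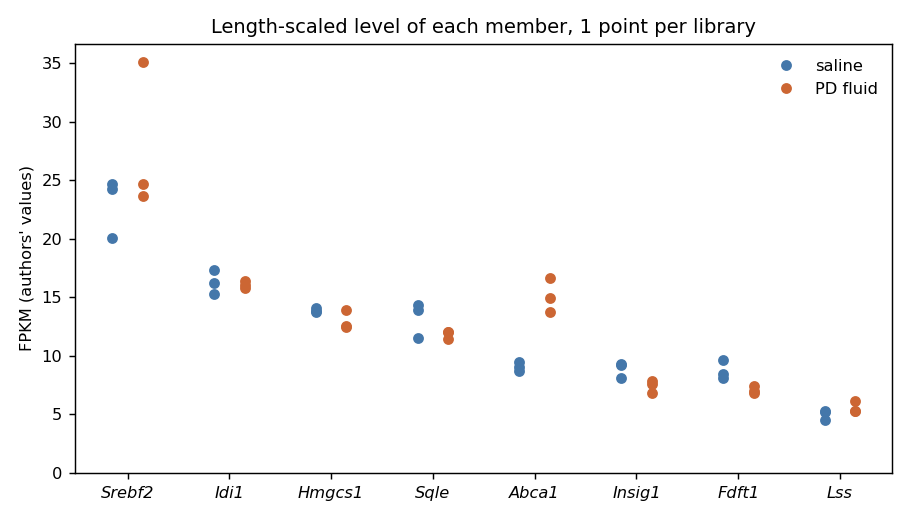
FPKM as computed by the authors (y axis), 1 point per library, for the 8 genes ordered by their mean in saline mice. Srebf2 is highest in both groups, Lss is lowest, and Abca1 moves from 9.08 FPKM in saline mice to the level of Idi1 and Hmgcs1 in PD mice.

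Within a library, the log2 ratio of each gene to Srebf2 does not depend on how libraries are scaled. The ratio of Insig1 to Srebf2 was -2.03, -1.69 and -2.00 in saline mice and -2.98, -2.52 and -2.24 in PD mice, a difference of -0.67. That of Fdft1 was -2.09, -1.42 and -2.15 in saline mice and -2.87, -2.58 and -2.24 in PD mice, a difference of -0.67. In both, every PD mouse lay below every saline mouse, with a two-sided exact permutation p of 0.1, the smallest that 3 mice against 3 allow (0.35 adjusted over the 7 ratios). The ratios of Hmgcs1, Sqle, Idi1, Lss and Abca1 to Srebf2 overlapped between the groups. Their differences were -0.54, -0.58, -0.43, -0.27 and 0.31, in that order (exact permutation p from 0.2 to 0.4 over these 5). Srebf2 is GC-rich, as given above, and the part of GC content in these ratios was not tested.

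The 15 other enzymes of sterol synthesis were mostly at or slightly below the saline level. Of these, 1 was higher, 5 were lower and 9 did not pass, with a median log2 fold change of -0.17 against 0.02 over all tested genes. Those 6 calls are a smaller share than the 58.9% called over all tested genes. Pmvk, which phosphorylates mevalonate phosphate, fell from 19.4, 21.2 and 20.0 CPM to 15.3, 13.7 and 16.0 CPM (log2 -0.43, SE 0.11, adjusted p = 0.00528 by edgeR's quasi-likelihood test). Nsdhl, a sterol dehydrogenase, fell from 32.6, 40.6 and 33.3 CPM to 23.7, 28.4 and 30.5 CPM, a log2 change of -0.37. Lbr, a sterol reductase that is also a receptor for lamin at the nuclear envelope, was the most abundant of the list and went from 342 to 372 CPM in saline mice down to 282 to 295 CPM in PD mice (log2 -0.33, adjusted p = 0.000813 by edgeR's quasi-likelihood test). Hsd17b7 (-0.31) and Sc5d (-0.29), late enzymes that act on the sterol rings, completed the 5 that fell. With the GC correction Sc5d passed at -0.20 (edgeR adjusted p = 0.0435) and Hsd17b7 did not at -0.24 (edgeR adjusted p = 0.0877), and Hsd17b7 was called in 4 of the 14 other settings against 14 of 14 for Sc5d. Mvd, which makes the first isoprene unit, was the 1 gene that rose (0.36, adjusted p = 0.0213 by edgeR), and stood at -0.06 (adjusted p = 0.736) with the GC correction. Acat2, which joins acetyl-CoA units, had means of 71.0 ± 3.60 CPM with saline and 61.2 ± 7.33 CPM with PD fluid. It did not pass in the main test (edgeR adjusted p = 0.0625) and passed with the GC correction, at -0.27 (edgeR adjusted p = 0.0199). Without PD mouse 1 or without PD mouse 2, 3 of the 15 genes were called in place of 6. Beside this list, 7 of 8 proliferation markers were lower, against 27.8% of all tested genes, and Mki67 did not pass (log2 0.01, edgeR adjusted p = 0.93). The summed levels of these markers were 338 to 350 CPM in saline mice and 262 to 277 CPM in PD mice. Their part in the list of sterol enzymes was not tested.

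Among 6 other genes of SREBP control, 3 were higher, 1 was lower and 2 did not pass, with a median log2 fold change of 0.10. The 4 calls of 6 are near the 58.9% of all tested genes. Srebf1, whose products drive fatty acid synthesis as well as sterol genes, went from 33.0, 26.0 and 35.4 CPM to 52.0, 43.8 and 40.0 CPM (log2 0.52, SE 0.13, adjusted p = 0.0050 by edgeR's quasi-likelihood test). Scap, the escort of SREBPs, went from 26.0, 15.8 and 35.9 CPM to 51.5, 35.2 and 33.4 CPM with overlap between the groups (0.63, SE 0.25, edgeR adjusted p = 0.0477). As with Srebf2, saline mouse 2 was the lowest and PD mouse 1 the highest library for both. Their transcripts have 58.4% and 59.1% GC, and with the GC correction the log2 fold changes were 0.15 (edgeR adjusted p = 0.134) and 0.23 (edgeR adjusted p = 0.260). Mbtps1, which encodes the first of the proteases that cut SREBPs, rose by a log2 change of 0.25, and stood at 0.18 with the GC correction (edgeR adjusted p = 0.0572). Insig2, the partner of Insig1, fell from 63.7, 67.2 and 69.8 CPM to 51.6, 56.7 and 59.6 CPM with no overlap (-0.26, SE 0.08, edgeR adjusted p = 0.0161), and remained lower with the GC correction (-0.22, edgeR adjusted p = 0.0230). Rnf139, a ubiquitin ligase of the endoplasmic reticulum, had means of 72.0 CPM with saline and 60.9 CPM with PD fluid, a log2 fold change of -0.24 that did not pass (SE 0.10, edgeR adjusted p = 0.0526). Leaving out saline mouse 2, PD mouse 1 or PD mouse 2 left 2 of the 6 genes called in place of 4.

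Beside Abca1, 6 genes of LXR and of cholesterol efflux were examined, with 2 higher, 2 lower and 2 not past the test, near the 31.1% higher and 27.8% lower of all tested genes, with a median log2 fold change of 0.13. Abcg1, the exporter that passes cholesterol on to mature HDL, was at 246, 229 and 218 CPM in saline mice and at 86.8, 101 and 124 CPM in PD mice. The groups were far apart in the direction opposite to Abca1, with a log2 fold change of -1.15 (SE 0.11, adjusted p = 8.61e-06 by edgeR's quasi-likelihood test). The log2 ratio of Abca1 to Abcg1, a pair chosen after its values were seen, was -1.34, -1.28 and -1.29 in saline mice and 0.93, 0.60 and 0.21 in PD mice, a difference of 1.89 with no overlap (exact permutation p = 0.1, the smallest possible). Mylip, an LXR target that marks lipoprotein receptors for degradation, fell from 107, 97.8 and 99.9 CPM to 67.4, 70.2 and 77.0 CPM (log2 -0.51, edgeR adjusted p = 0.000192). Pltp, the phospholipid transfer protein of plasma, rose from 90.1, 81.4 and 93.1 CPM to 297, 279 and 234 CPM (log2 1.61, edgeR adjusted p = 1.15e-07). Lpcat3, which remodels membrane phospholipids, rose by a log2 change of 0.21 and stood at 0.068 with the GC correction (edgeR adjusted p = 0.455). The receptor genes Nr1h2 (0.05) and Nr1h3 (0.23) did not pass. With the GC correction Nr1h2 was called lower at -0.41 (edgeR adjusted p = 0.002), and Nr1h3 was at -0.08 (edgeR adjusted p = 0.612). Between the same groups the median log2 fold change was -1.11 over the B cell markers and 2.04 over the macrophage markers. The part of such shifts in cell types in the changes of these genes, Abcg1 among them, was not tested.

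Genes of lipoprotein uptake, cholesterol esters and oxysterols were higher in 8 of 10 cases, against 31.1% of all tested genes, with 2 not past the test and a median log2 fold change of 0.57 against 0.02. Scarb1, the HDL receptor, rose from 29.2, 29.2 and 32.1 CPM to 92.2, 83.5 and 74.3 CPM (log2 1.47, edgeR adjusted p = 2.86e-07). Ch25h, which makes 25-hydroxycholesterol, rose from 5.94, 4.93 and 5.84 CPM to 15.5, 19.6 and 15.9 CPM (log2 1.61, edgeR adjusted p = 5.22e-06). Lipa, the lysosomal acid lipase, went from 139 ± 9.42 to 230 ± 1.79 CPM (log2 0.73). Vldlr, a lipoprotein receptor, was low in both groups, at 0.88 to 2.32 CPM in saline mice and 3.08 to 4.97 CPM in PD mice (log2 1.39). Npc2, which carries cholesterol out of lysosomes, was the most abundant, with a log2 change of 0.25 that was 0.15 with the GC correction (edgeR adjusted p = 0.111), while Soat2 (0.64) and Stard4 (0.07) did not pass. Scaling to endothelial markers moved the median of all genes to -0.98. It put Scarb1 at 0.47, Ch25h at 0.62, Vldlr at 0.41 (edgeR adjusted p = 0.263), Lipa at -0.27 and Npc2 at -0.75. Relative to that median these genes were at 1.45, 1.59, 1.38, 0.71 and 0.23, in that order, all above 0. Macrophages, which the CD45 gate of the methods would remove, express several of these genes, Lipa and Npc2 among them, and the part of the higher macrophage markers in this list was not tested.

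The neighbouring lipid branches were mixed. Of 8 fatty acid synthesis genes 3 were higher and 2 lower, near the 58.9% called over all tested genes, with a median log2 fold change of 0.20. Scd1, the desaturase that makes oleate, fell from 328, 322 and 345 CPM to 194, 192 and 192 CPM (log2 -0.79, edgeR adjusted p = 8.95e-07). Acss2, which makes acetyl-CoA from acetate, fell by 0.54 on the log2 scale. Me1, the malic enzyme that supplies NADPH, rose from 1.48, 1.98 and 1.78 CPM to 6.40, 5.37 and 5.12 CPM (log2 1.69, edgeR adjusted p = 5.39e-05), and Acly, which makes cytosolic acetyl-CoA from citrate, rose by 0.26 and stood at 0.14 with the GC correction (edgeR adjusted p = 0.0771). Fasn, the fatty acid synthase gene, has 57.9% GC and stood at 0.77 (edgeR adjusted p = 0.0317) in the main test and at 0.42 (edgeR adjusted p = 0.103) with the GC correction. Of 5 non-sterol isoprenoid genes 2 were higher and 1 lower, again near 58.9%, with a median of 0.09. Ggps1, which makes the geranylgeranyl chain for protein prenylation, fell from 134, 142 and 134 CPM to 83.9, 101 and 101 CPM (log2 -0.52, edgeR adjusted p = 0.000273). Nus1 (0.42) and Dhdds (0.30), the subunits of the enzyme that makes dolichol, rose, and with the GC correction Nus1 passed at 0.53 while Dhdds was at 0.19 (edgeR adjusted p = 0.0736). Scaling to endothelial markers, which moved the median of all genes to -0.98, kept Pltp (0.62) and Me1 (0.69) above 0 and put below 0 the other genes of these lists named as higher, from Fasn at -0.23 to Lpcat3 at -0.78, apart from the uptake genes given above. Scap, Fasn, Hsd17b7, Sc5d, Soat2, Stard4, Nr1h2 and Nr1h3 were named after their values were seen, to account for all genes of a count.

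**Figure D4:**
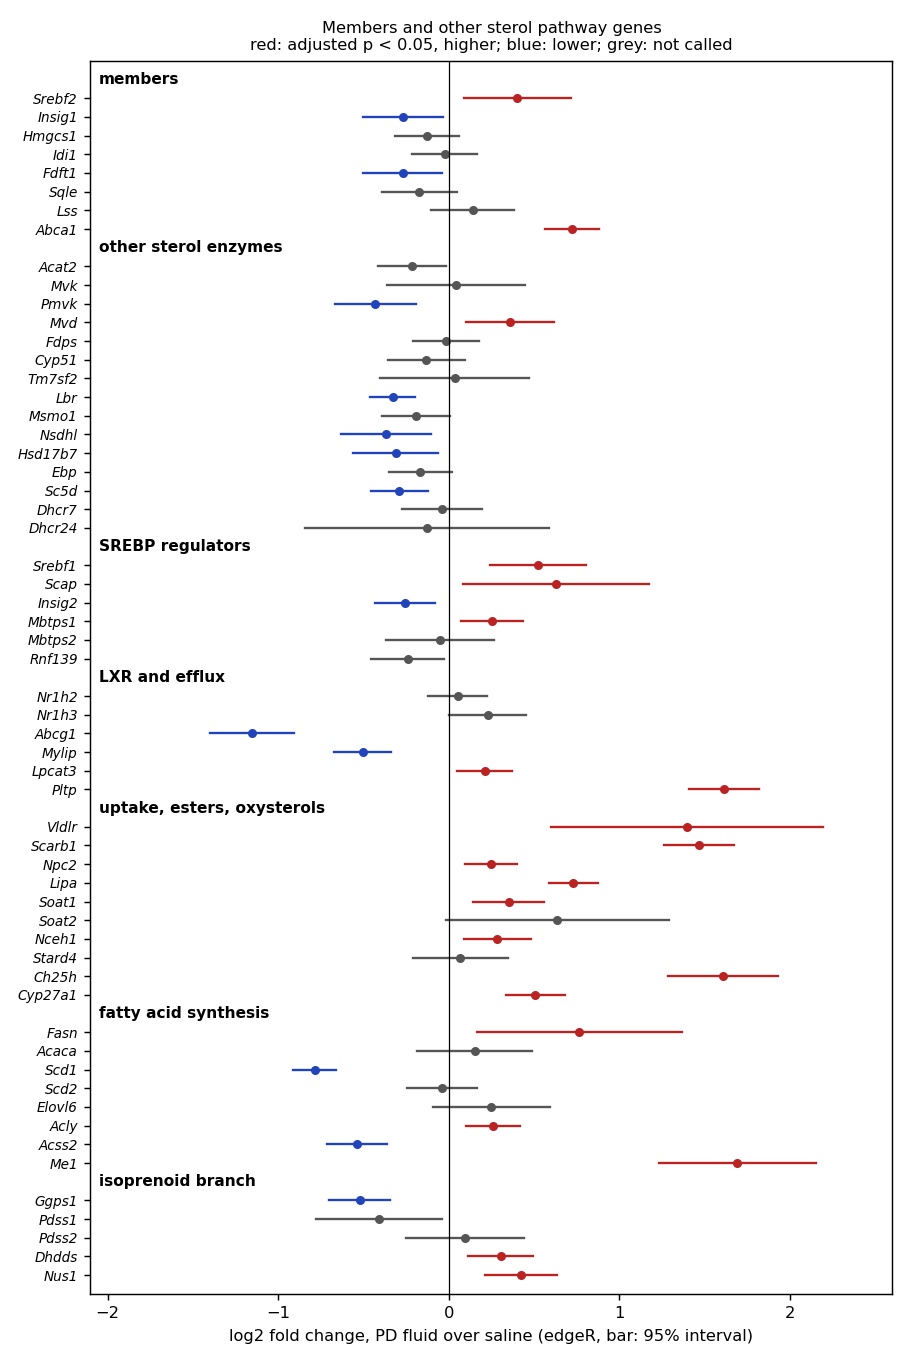
Log2 fold change (x axis, PD fluid minus saline) of the 8 genes and of the genes of the 6 pathway lists, 1 row per gene, with bars for the 95% interval and red, blue and grey for genes called higher, called lower and not called. Sterol enzymes cluster at or just below 0, uptake and oxysterol genes lie mostly above 0, and the efflux genes spread from -1.15 (Abcg1) to 1.61 (Pltp).

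The 5 enzymes Hmgcs1, Idi1, Fdft1, Sqle and Lss were summarised over the 6 libraries by the mean of their standardised log2(CPM + 1). It was -0.14, 0.77 and 0.33 in saline mice and -0.85, -0.64 and 0.52 in PD mice. PD mice 1 and 2 were lowest and saline mouse 2 was highest, while PD mouse 3 lay within the saline range. The enzymes did not follow it alike, since saline mouse 2 was the highest library for Hmgcs1, Idi1 and Fdft1 and the lowest for Lss. Among 9377 tested genes with a mean of at least 10 CPM, the genes most like this mean over the 6 libraries were 1110038F14Rik (Pearson r = 0.985), Ldhb, the heart-type lactate dehydrogenase subunit (0.981), Kantr (0.973), Pja2 (0.973) and Zdhhc21 (0.970). They are the highest of 9377 values of r, each over only 6 libraries, and picking the highest by itself favours a large r. These values describe 6 libraries that differ in GC content and treatment together. The log2 fold changes of the 5 genes between the groups ran from -0.24 to -0.05, with edgeR adjusted p from 0.108 to 0.706.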

How the data were processed

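RNA from CD31-sorted peritoneal cells of 3 saline mice and 3 PD mice was sequenced, and libraries were grouped by treatment as the labels give it. The authors deposited raw read counts per gene, without normalization, and FPKM values that they computed from them. The submitters' processing notes name fastp 0.18.0, Bowtie2 2.2.8, HISAT2, StringTie and RSEM, and the genome build is not given in the sources used here. The table also holds the authors' fold change, p-value and FDR columns, which were not used. Sample columns left unmatched numbered 0.

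Counts were analysed with R 4.3.3 and edgeR 4.0.16. Genes were kept by filterByExpr (14005 of 22183), scaled by TMM and tested by the quasi-likelihood F test of PD fluid against saline without covariates, with Benjamini-Hochberg adjustment over all tested genes and a threshold of 0.05. The standard error is the absolute log2 fold change divided by the square root of F. CPM was computed from TMM-scaled counts, FPKM served only to order levels between genes, and ratios used counts plus 0.5. The P values test the difference between groups against the spread between the libraries of the mice. Alternatives used limma 3.58.1 (voom), DESeq2 1.42.0, other scaling and filters, a replicate block and each mouse left out. GC and transcript length corrections (a lowess trend per library, span 0.3) and the ratio of Abca1 to Abcg1 were added after seeing the data. The library preparation kit is not stated to keep strand.

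The 8 genes and the pathway lists were chosen with earlier results of these data known. Named from each list are up to 4 called genes with the largest change and no overlap between groups and the 2 with the highest mean CPM. Some genes of the pathway are not reported here. Positions are from GENCODE M21 on GRCm38 and sequences from RefSeq GRCm38.p6. The scripts were tested on simulated counts. Python 3.11.15 with numpy 2.4.6 and pandas 2.3.3 served for the tables.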

Additional observations from a re-analysis of the deposited data

How the results depend on the processing

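RLE size factors and limma-voom kept the counts of calls for the 8 genes. Scaling to endothelial markers, which moved the median of all genes by -0.98 and gave 1136 higher and 10161 lower calls in place of 4359 and 3887, called 0 of the 8 genes higher and 8 lower, 15 sterol enzymes and 5 isoprenoid genes. It put Hmgcs1 at -1.12, Sqle at -1.17, Idi1 at -1.02, Lss at -0.85, Srebf2 at -0.59 and Abca1 at -0.28. With the GC correction 1 of the 8 genes was higher, Srebf2 was at 0.0575 and Idi1 at 0.10, and 1 SREBP regulator and 3 fatty acid genes were called. With the length correction 1 of the 8 genes was higher, Srebf2 was at 0.26 (edgeR adjusted p = 0.0728), Sqle passed at -0.29, and 5 uptake genes were called. A fold of at least 1.5 left 1 of the 8 genes higher and 0 lower, 0 sterol enzymes, 1 regulator, 2 LXR genes, 4 uptake genes, 3 fatty acid genes and 0 isoprenoid genes.

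Without the filter 0 of the 8 genes were lower, with Insig1 at -0.27 (edgeR adjusted p = 0.0544) and Fdft1 at -0.27 (0.0573), and with DESeq2 0 were lower, at -0.28 (0.0522) and -0.28 (0.0512). The deviations of mice with the same replicate number had correlations of 0.19, 0.07 and -0.27, within the range of -0.41 to 0.36 for the other pairs. With so few mice these values cannot decide whether the number pairs the mice. With the number as a block, 7909 genes were called in place of 8246 and 0 of the 8 genes were lower, with Insig1 at -0.27 (edgeR adjusted p = 0.0724) and Fdft1 at -0.27 (0.0728). The cause of these changes was not tested.

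With each mouse left out in turn, 1 to 2 of the 8 genes were higher and 0 to 2 lower, and 3 to 6 sterol enzymes, 2 to 4 regulators, 3 to 5 LXR genes, 7 to 8 uptake genes, 4 to 5 fatty acid genes and 2 to 4 isoprenoid genes were called. Log2 fold changes ran from 0.26 to 0.51 for Srebf2, -0.32 to -0.19 for Insig1, -0.20 to -0.07 for Hmgcs1, -0.064 to 0.033 for Idi1 (0.033 without saline mouse 2, 0.017 without PD mouse 1), -0.33 to -0.20 for Fdft1, -0.26 to -0.12 for Sqle, 0.04 to 0.20 for Lss and 0.67 to 0.77 for Abca1. No direction of a ratio to Srebf2 reversed under these omissions or a pseudocount of 5.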
